A study of Homo sapiens with 12 samples.

Results

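The 91 genes described here are the nuclear genes of the 5 respiratory chain complexes, taken by name from the 60617 genes of the TPM table. Names beginning with NDUFA, NDUFB, NDUFC, NDUFS or NDUFV and a digit were assigned to complex I, SDHA to SDHD to complex II, UQCR names and CYC1 to complex III, COX4 to COX8 to complex IV and ATP5 names to complex V. Of 242 names that matched, 149 pseudogene rows and 2 antisense rows were left out. The members are 40 genes of complex I, 4 of complex II, 10 of complex III, 17 of complex IV and 20 of complex V. Of these, 88 are single subunit genes. The other members are NDUFA6-DT, a non-coding RNA, and NDUFC2-KCTD14 and ATP5MF-PTCD1, which are readthrough transcripts. NDUFA4 carries a complex I name and is counted there by the rule, although its protein is now regarded as a subunit of complex IV.

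RNA-Seq was performed on 201B7, an established human iPSC line, in 4 culture conditions with 3 libraries each, harvested on Day 5. Cond 1 was the control, kept by the usual maintenance culture in StemFit. In Cond 2, called low nutrient, the cells were kept in StemFit that had been inactivated by heat (56 °C, 30 min). In Cond 3, called differentiation, they received a DMEM-based medium that held MEM NEAA, GlutaMax and 10% FBS. The study's text gives Day 2 as the start of the heated medium and Day 4 for the FBS stimulus. Medium and time of exposure therefore cannot be told apart between Cond 2 and Cond 3. In Cond 4, called physical stimulation, they were pipetted 20 times at passaging and then cultured as the control was. All 4 conditions were cultured in wells of the same plates, and a single line was used, so the values hold for 201B7 only. The study's results call the replicates technical, whereas its methods speak of a repeated arrangement. The labels do not say whether the 3 libraries came from separate cultures. The p-values measure the spread between these libraries, which may be technical.

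The respiratory chain sits in the inner mitochondrial membrane. Complex I takes electrons from NADH and complex II takes them from succinate, ubiquinone carries them to complex III, cytochrome c carries them on to complex IV, and complex IV reduces oxygen to water. Complexes I, III and IV pump protons, and complex V, the ATP synthase, lets them flow back through a ring of c subunits to make ATP. Complex II is made from nuclear genes alone, whereas each of the other complexes also needs subunits encoded by mitochondrial DNA. Human pluripotent stem cells are known for high glycolysis alongside a working respiratory chain, and differentiation is often accompanied by a shift in the balance of these pathways.

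The libraries held between 16441148 and 21871503 counts, of which the members took between 0.778% and 0.941%. The highest share, 0.941%, was that of replicate 2 of Cond 1. In that library the median member lay 0.097 above the mean of Cond 1 on the log2 CPM scale, whereas the other libraries of Cond 1 lay at -0.048 and -0.043, with a pooled SD within conditions of 0.057. The 7 markers of pluripotent stem cells were all above 1 TPM in all conditions, with a summed level of 7325 to 7635 TPM in Cond 1, 6587 to 7599 TPM in Cond 2, 7778 to 8520 TPM in Cond 3 and 7116 to 7591 TPM in Cond 4. Of 7 fibroblast markers, 3 were under 1 TPM in each condition, and their summed level was 424 to 456 TPM in Cond 1, 265 to 314 in Cond 2, 585 to 622 in Cond 3 and 384 to 408 in Cond 4. The summed level of 4 neuroectoderm markers, 2 of them under 1 TPM, was 5.00 to 13.9 TPM in Cond 1, 316 to 544 TPM in Cond 2, 26.9 to 42.9 TPM in Cond 3 and 10.2 to 18.6 TPM in Cond 4. The summed level of 6 muscle markers, 5 of them under 1 TPM, was 57.6 to 59.4 TPM in Cond 2 and 18.0 to 25.1 TPM in the other conditions. Of 5 mesendoderm markers, 3 or 4 were under 1 TPM and the sum reached 4.48 TPM. Without overlap with Cond 1, the muscle sum was higher in Cond 2, the neuroectoderm sum in Cond 2 and Cond 3 and the pluripotent sum in Cond 3, and the fibroblast sum was higher in Cond 3 and lower in Cond 2 and Cond 4. A sum can hide single markers that move the other way, so these sums do not show whether each marker was kept. The study reports lower expression of the pluripotency marker NANOG under low nutrient and under differentiation than in the control. The part of the markers in the results below was not tested. In such bulk libraries, fewer cells of a type and less RNA per cell cannot be told apart.

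Respiratory chain genes are known for promoters that are bound by NRF1, by ETS factors such as GABPA, and by YY1. The RefSeq promoter (GRCh38.p14, 250 bases before to 50 after the start) was matched for 71 of the 91 members. Exact matches on either strand were searched for GCGCATGCG (NRF1), CCGGAAG (ETS) and AAGATGGCG (YY1). The ETS letters end in the AAG with which the YY1 letters begin, so that a match of each can overlap. The ETS letters were found in 20 of the 71 member promoters (28.2%) and in 10.7% of all 27305 promoters of that length. The NRF1 letters were found in 10 members (14.1%) and in 2.1% of all promoters, and the YY1 letters in 9 members (12.7%) and in 1.85% of all. In the promoters of the 12000 genes tested below that could be matched, the shares were 17.1% for ETS, 3.31% for NRF1 and 3.50% for YY1. These counts depend on the letters. With 1 more letter for NRF1 and 2 more for YY1, each was found in 4 members (5.63%), beside 1.36% and 0.916% of all promoters. In the promoters of the 12000 genes tested, these shares were 2.11% and 1.81%. The sequences of 7 members are shown because the comparisons below turn on these genes, with matches in capitals. ATP5MC1 and ATP5MC2 encode the c subunit of the ATP synthase, and NDUFV1, ATP5PD, NDUFB4 and SDHB were among the called members that fell furthest in Cond 2. UQCRC1 rose in Cond 3.
ATP5MC1: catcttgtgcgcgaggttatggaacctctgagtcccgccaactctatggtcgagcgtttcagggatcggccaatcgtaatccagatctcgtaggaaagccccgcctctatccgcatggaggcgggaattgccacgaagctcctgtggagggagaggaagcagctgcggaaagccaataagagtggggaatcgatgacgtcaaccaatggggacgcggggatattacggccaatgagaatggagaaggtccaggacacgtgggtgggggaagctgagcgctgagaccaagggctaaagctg
ATP5MC2: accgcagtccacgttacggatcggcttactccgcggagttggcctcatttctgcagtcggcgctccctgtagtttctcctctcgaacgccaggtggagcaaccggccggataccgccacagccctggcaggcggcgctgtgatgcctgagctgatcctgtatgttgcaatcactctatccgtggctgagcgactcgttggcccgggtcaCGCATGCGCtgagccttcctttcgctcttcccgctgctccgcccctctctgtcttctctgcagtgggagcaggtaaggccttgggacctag
NDUFV1: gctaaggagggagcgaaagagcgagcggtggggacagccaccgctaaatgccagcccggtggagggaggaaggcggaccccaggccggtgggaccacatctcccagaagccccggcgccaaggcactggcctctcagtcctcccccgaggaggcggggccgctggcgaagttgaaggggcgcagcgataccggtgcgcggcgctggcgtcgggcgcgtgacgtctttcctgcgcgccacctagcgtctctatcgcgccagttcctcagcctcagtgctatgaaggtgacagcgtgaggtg
ATP5PD: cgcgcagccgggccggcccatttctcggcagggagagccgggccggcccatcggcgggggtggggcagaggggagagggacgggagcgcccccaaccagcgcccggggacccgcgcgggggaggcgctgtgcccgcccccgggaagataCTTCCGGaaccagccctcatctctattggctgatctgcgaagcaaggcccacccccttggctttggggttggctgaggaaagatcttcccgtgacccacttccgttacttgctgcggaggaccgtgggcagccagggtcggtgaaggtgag
NDUFB4: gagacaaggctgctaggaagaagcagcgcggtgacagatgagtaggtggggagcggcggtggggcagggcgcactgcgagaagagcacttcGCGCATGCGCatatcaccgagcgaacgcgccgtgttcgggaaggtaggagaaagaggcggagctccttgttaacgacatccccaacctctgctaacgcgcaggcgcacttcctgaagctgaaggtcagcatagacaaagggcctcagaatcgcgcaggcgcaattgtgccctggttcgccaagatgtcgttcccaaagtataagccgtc
SDHB: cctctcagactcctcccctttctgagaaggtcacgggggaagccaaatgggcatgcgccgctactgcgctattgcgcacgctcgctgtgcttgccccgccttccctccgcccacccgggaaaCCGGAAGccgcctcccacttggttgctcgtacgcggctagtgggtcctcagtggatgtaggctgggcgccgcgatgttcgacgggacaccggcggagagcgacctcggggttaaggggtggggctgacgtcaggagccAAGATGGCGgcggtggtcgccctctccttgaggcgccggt
UQCRC1: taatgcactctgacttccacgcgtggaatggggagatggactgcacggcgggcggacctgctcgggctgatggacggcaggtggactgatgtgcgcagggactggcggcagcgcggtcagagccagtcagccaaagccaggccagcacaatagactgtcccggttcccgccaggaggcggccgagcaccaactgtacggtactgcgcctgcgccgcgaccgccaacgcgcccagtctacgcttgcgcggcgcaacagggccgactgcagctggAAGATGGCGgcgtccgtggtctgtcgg
These windows lie at chr17:48892537-48892836 (forward strand) for ATP5MC1, chr12:53676034-53676333 (reverse) for ATP5MC2, chr11:67606686-67606985 (forward) for NDUFV1, chr17:75046920-75047219 (reverse) for ATP5PD, chr3:120596086-120596385 (forward) for NDUFB4, chr1:17053983-17054282 (reverse) for SDHB and chr3:48609597-48609896 (reverse) for UQCRC1. ATP5PD held 1 ETS match, ATP5MC2 1 NRF1 match, NDUFB4 2 overlapping NRF1 matches, 1 on each strand, SDHB 1 ETS and 1 YY1 match and UQCRC1 1 YY1 match. None of the 3 motifs was found in the windows of ATP5MC1 and NDUFV1. Of the 17 members lower in Cond 2 described below, 11 had a promoter in the table, and the NRF1 letters were in 2 of these, the ETS letters in 3 and the YY1 letters in 1.

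The members covered a wide range of levels. Of the 88 subunit genes, 36 had a mean of at least 100 TPM over the 12 libraries, 32 had 10 to 100 TPM, 10 had 1 to 10 TPM and 10 were under 1 TPM. The member with the highest level of each complex was NDUFS5 in complex I (mean 1574 TPM), an accessory subunit, SDHB in complex II (81.3 TPM), the iron-sulfur subunit, UQCRH in complex III (654 TPM), the hinge protein next to cytochrome c1, COX7C in complex IV (674 TPM) and ATP5F1B in complex V (1624 TPM), the catalytic beta subunit. Summed over all members, the level was 14594, 16477 and 14674 TPM in replicates 1 to 3 of Cond 1, 13726, 14609 and 14811 TPM in Cond 2, 14196, 14620 and 14693 TPM in Cond 3 and 15002, 14806 and 14287 TPM in Cond 4. The sums of Cond 2, Cond 3 and Cond 4 each overlapped those of Cond 1. The sum over complex I was 6067 ± 480 TPM (SD, n = 3) in Cond 1 and 5568 ± 108 TPM (SD, n = 3) in Cond 2, where all 3 libraries lay below those of Cond 1. Each other sum over a complex in Cond 2 overlapped Cond 1.

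**Figure D1:**
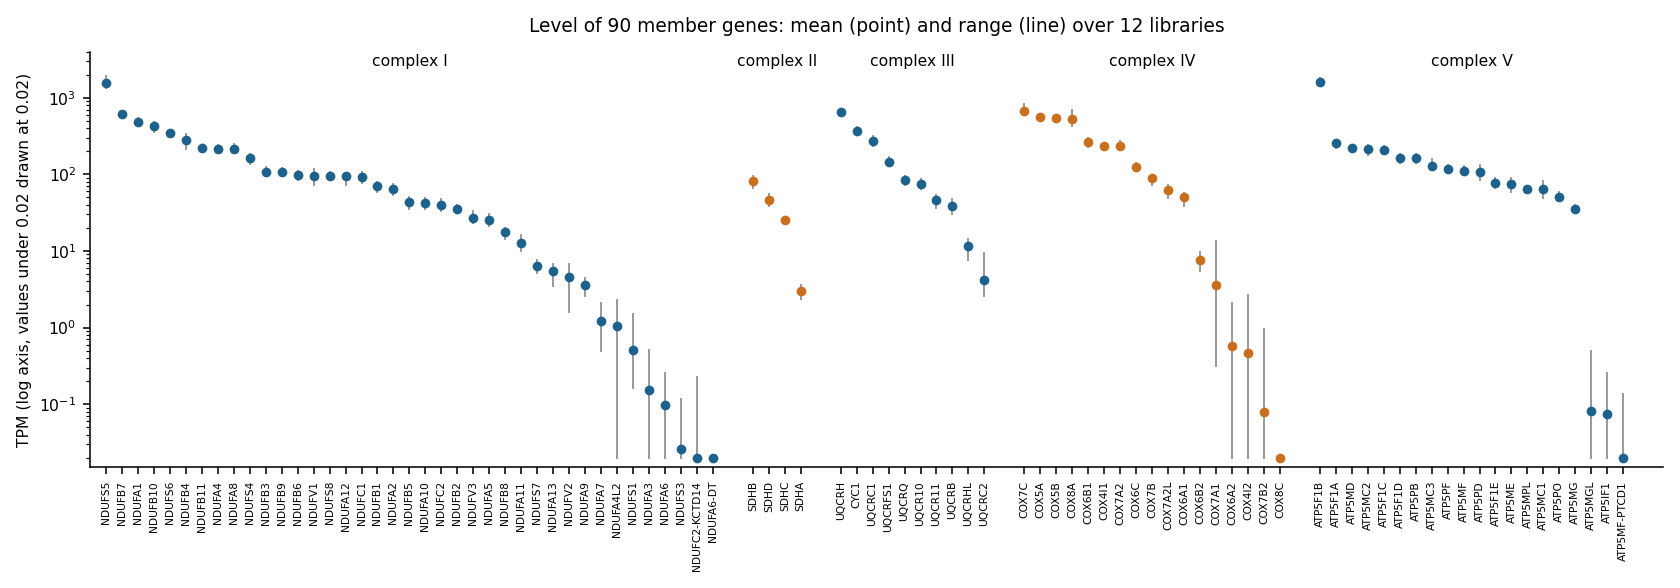
Mean TPM of 90 of the 91 members (point) and its range over the 12 libraries (line), on a log axis, with members ordered by level within complexes I to V. The points run from 1624 TPM for ATP5F1B to members with no read, and values under 0.02 TPM are drawn at 0.02.

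Of the 91 members, 84 had counts, and 75 of these passed the filter on low counts of edgeR and were tested together with all other genes, 17747 in all. The comparison of Cond 2 with Cond 1 addresses what culture in heated medium did. In Cond 2, 17 of the 75 members fell and 0 rose by the quasi-likelihood test of edgeR (adjusted p-value under 0.05), beside 10.1% of all genes tested that fell and 10.8% that rose. The 17 members are 22.7% of those tested. At an unadjusted p-value under 0.05 from edgeR, 29 members were lower and 0 higher, beside 15.5% and 16.2% of all genes tested, and DESeq2 and limma also called 0 higher. The median log2 fold change of the members was -0.14, with 64 of 75 below 0, and that of all genes was 0.00018. The called changes were small, and none exceeded 2-fold, beside 4.34% of all genes tested that were called with such a change. On TPM, 14 members were without overlap lower in Cond 2 and 2 without overlap higher, beside 11.2% and 24.4% of all genes tested.

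Among the called members, NDUFV1 fell furthest in Cond 2. This gene (ENSG00000167792, chromosome 11 of GRCh38, 67605653 to 67612554, forward strand) encodes the core subunit of complex I that binds FMN and NADH. Its TPM was 106, 117 and 99.95 in the libraries of Cond 1 and 77.9, 80.7 and 72.9 in those of Cond 2. The groups did not overlap, and the log2 fold change was -0.57 (standard error, SE, 0.0624, edgeR adjusted p = 3.81e-07). ATP5PD (ENSG00000167863, chromosome 17, 75038863 to 75046985, reverse strand), subunit d of the peripheral stalk of ATP synthase, was at 114.5, 133 and 116 TPM in Cond 1. In Cond 2 it was at 85.3, 87.4 and 88.7 TPM. All 3 libraries of Cond 2 were low, and the log2 fold change was -0.56 (SE 0.0666, edgeR adjusted p = 1.16e-06). NDUFB4, an accessory subunit of the membrane arm of complex I, was at 312, 341 and 305 TPM in Cond 1 and at 217, 261 and 252 TPM in Cond 2 (log2 fold change -0.48, SE 0.0627, edgeR adjusted p = 4.51e-06). NDUFA4 was at 232, 245 and 233 TPM in Cond 1 and at 188, 193 and 198 TPM in Cond 2, a log2 fold change of -0.38 (SE 0.0513, edgeR adjusted p = 6.56e-06). Neither gene's libraries overlapped between these conditions. SDHB, which passes electrons from the flavin of complex II to ubiquinone, was at 81.9, 96.0 and 79.4 TPM in Cond 1 and at 66.7, 72.6 and 70.1 TPM in Cond 2 (log2 fold change -0.38, SE 0.0839, edgeR adjusted p = 0.00173).

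The calls in Cond 2 were spread over the complexes. In complex I 6 of 34 tested members fell, among them NDUFV1, NDUFB4, NDUFA4, NDUFA10 and NDUFS5, and the median log2 fold change was -0.19. In complex II 1 of 4 fell, and SDHA, the flavoprotein subunit, had a log2 fold change of -0.43 without passing the test (edgeR adjusted p = 0.0586). SDHC and SDHD, which anchor the complex in the membrane, had log2 fold changes of -0.06 and -0.15. In complex III 2 of 9 fell, CYC1, which encodes cytochrome c1, by 0.21 and UQCRFS1, the Rieske iron-sulfur protein, by 0.27 on the log2 scale. In complex IV 3 of 13 fell, namely COX7B, COX7C and COX8A, whereas COX4I1 and COX5A, which are among the larger nuclear subunits, had log2 fold changes of -0.10 and -0.00039. In complex V 5 of 15 fell. They were ATP5PD, the c subunit gene ATP5MC1 and the genes ATP5F1B, ATP5F1C and ATP5F1D for the beta, gamma and delta subunits of the catalytic head and its stalk. For ATP5F1A, the alpha subunit, the log2 fold change was -0.14 (edgeR adjusted p = 0.0638).

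The number of calls in Cond 2 depended on Cond 1 replicate 2, the library with the highest share of member reads. Without it 12 members fell, all of them among the 17, and the median of the members was -0.090. Among the 5 that lost their call without 1 of the 6 libraries were ATP5F1B, ATP5F1C, COX7B and COX7C. With limma on log2(TPM + 1) 10 fell, 9 of them among the 17, and the median was -0.049 beside 0.085 for all genes.

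**Figure D2:**
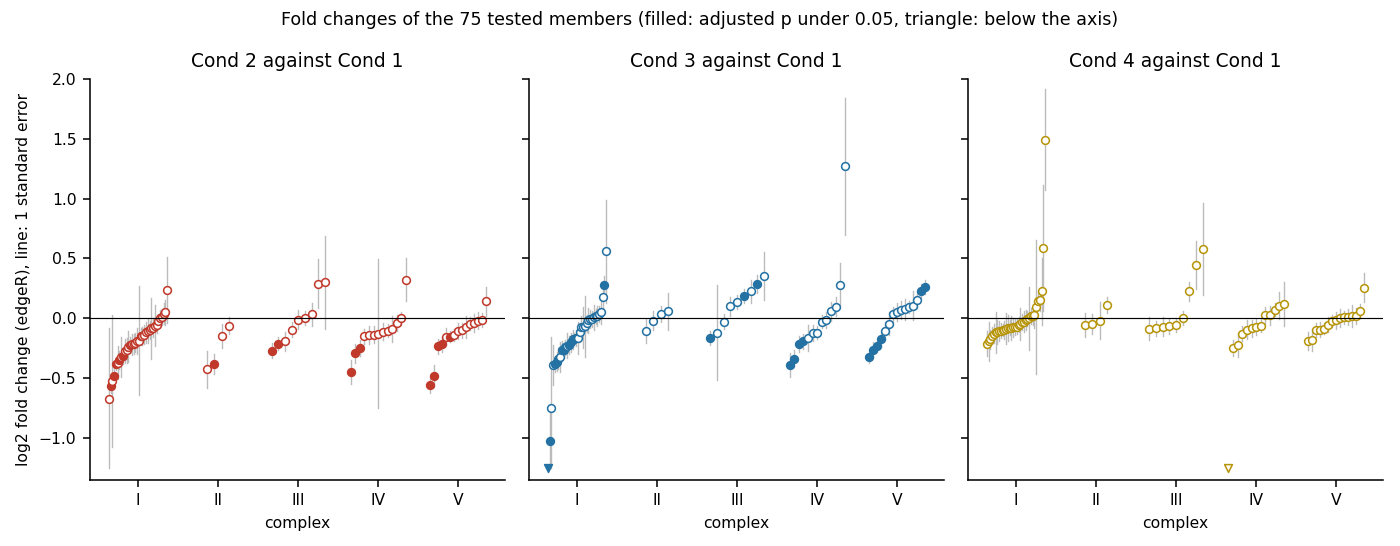
Log2 fold change from edgeR of the 75 tested members against Cond 1, by complex, for Cond 2, Cond 3 and Cond 4, with 1 SE as a line and filled points for an adjusted p-value under 0.05. In Cond 2 the 17 filled points all lie below 0, in Cond 3 there are 5 above and 21 below, and in Cond 4 there are none; triangles mark NDUFA4L2 in Cond 3 and COX7A1 in Cond 4, which lie below the axis.

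In Cond 3, the differentiation medium, members moved in both directions. Of the 75 tested, 5 rose and 21 fell, beside 19.5% of all genes tested that rose and 18.8% that fell. As shares of the members these are 6.67% and 28%. The median log2 fold change was -0.044, beside -0.0064 for all genes, and it turned to 0.052, beside 0.017 for all genes, with the trends with gene length, GC content and level removed. Without Cond 1 replicate 2 this median was 0.0014 and 14 members fell. On TPM, 20 members lay below Cond 1 in all 3 libraries and 8 above, beside 22.0% and 26.6% of all genes tested. The comparisons of Cond 2 and of Cond 3 share the 3 libraries of Cond 1, so that their values are given side by side only.

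Among members that rose in Cond 3, UQCRC1, a core protein of complex III, was at 261, 288 and 257 TPM in Cond 1 and at 307, 308 and 321 TPM in Cond 3. UQCRB, a subunit of complex III near the ubiquinone site, was at 34.8, 38.3 and 30.1 TPM in Cond 1 and at 40.9, 47.3 and 40.1 TPM in Cond 3. The libraries of Cond 3 were higher for both genes without overlap, with log2 fold changes of 0.19 (SE 0.0618, edgeR adjusted p = 0.0201) and 0.29 (SE 0.0763, edgeR adjusted p = 0.00439). NDUFA5, an accessory subunit of the matrix arm of complex I, was at 21.4, 26.4 and 23.7 TPM in Cond 1 and at 29.4, 30.4 and 28.2 TPM in Cond 3 (log2 fold change 0.27, edgeR adjusted p = 0.00659). ATP5PB, subunit b of the peripheral stalk, was at 153, 161 and 140 TPM in Cond 1 and at 177, 184 and 180 TPM in Cond 3 (log2 fold change 0.23, edgeR adjusted p = 0.00315). The fifth was ATP5MC3, given below. Without Cond 1 replicate 1, NDUFA5 and UQCRC1 were not called and 3 members rose. UQCRC1 also lost its call without Cond 1 replicate 3 and without Cond 3 replicate 3.

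The 21 members that fell in Cond 3 were 12 of 34 tested in complex I and 1 of 9 in complex III. The others were 4 of 13 in complex IV and 4 of 15 in complex V. As shares these are 35.3%, 11.1%, 30.8% and 26.7%, beside 18.8% of all genes tested that fell. NDUFA10, an accessory subunit of complex I, was at 47.2, 49.5 and 45.7 TPM in Cond 1 and at 36.8, 34.9 and 39.5 TPM in Cond 3, a log2 fold change of -0.38 (SE 0.0653, edgeR adjusted p = 6.17e-05). In Cond 2 its log2 fold change was -0.32. NDUFB5, of the membrane arm, was at 42.9, 50.1 and 46.9 TPM in Cond 1 and at 37.9, 37.4 and 35.4 TPM in Cond 3 (log2 fold change -0.36, edgeR adjusted p = 8.01e-04). NDUFA12, of the matrix arm, had a log2 fold change of -0.34 (edgeR adjusted p = 0.00346). COX7A2L, which links complexes III and IV into supercomplexes, was at 62.3, 72.8 and 65.9 TPM in Cond 1 and at 54.9, 49.4 and 57.9 TPM in Cond 3. The libraries did not overlap, and its log2 fold change was -0.34 (SE 0.0706, edgeR adjusted p = 5.82e-04). For the 4 called members that fell furthest in Cond 2, the log2 fold changes in Cond 3, against the same control libraries, were -0.24 for NDUFV1, -0.27 for ATP5PD, 0.07 for ATP5MC1 and -0.27 for NDUFB4. SDHB had -0.02 in Cond 3 (edgeR adjusted p = 0.884). In complex II 0 of 4 members were called in Cond 3 by edgeR, DESeq2 or limma, and 0 had an unadjusted p-value under 0.05.

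Called changes above 2-fold were found for 2 of 75 members in Cond 3, beside 8.16% of all genes tested. NDUFA4L2, a paralog of NDUFA4 known as a target of the hypoxia factor HIF1, had 25, 19 and 12 reads in Cond 1 and 3, 2 and 0 reads in Cond 3. Its fitted log2 fold change was -3.51 (SE 0.733, edgeR adjusted p = 5.63e-04). From 56 reads against 5 over each group, the level per total count was 12-fold higher in Cond 1, with a 95% exact binomial interval of 4.84 to 38.3 that covers counting error only. In Cond 2 it had 23, 12 and 5 reads and in Cond 4 30, 26 and 25 reads. NDUFV2, an iron-sulfur subunit of the NADH module, had 90, 50 and 66 reads in Cond 1 and 59, 24 and 26 in Cond 3 (log2 fold change -1.03, edgeR adjusted p = 0.00774). Over all libraries 1692 reads were counted on its pseudogene row and 794 on the gene, and 28.4% of its exon bases are shared with another gene on the same strand. With the pseudogene reads added to it, the log2 fold change was -0.27 and the call was lost (edgeR adjusted p = 0.166). Without Cond 1 replicate 1 it was -0.82 (edgeR adjusted p = 0.0588).

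**Figure D3:**
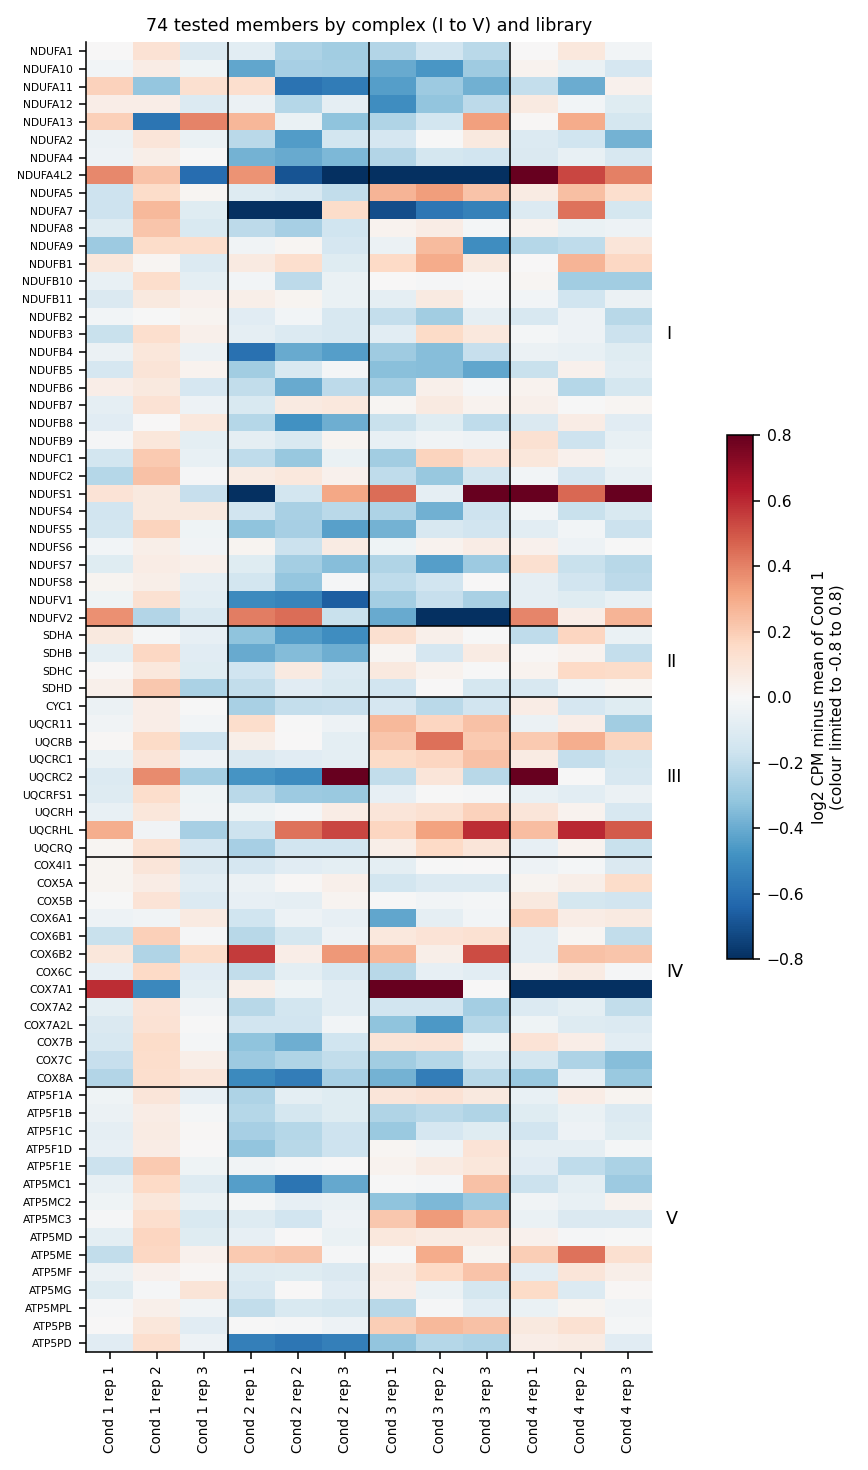
Log2 CPM of 74 of the 75 tested members minus the mean of Cond 1, by library (columns) and complex I to V (rows), with colours limited to -0.8 and 0.8. Blue runs through many rows of Cond 2, Cond 3 has rows of both colours, and the column of replicate 2 of Cond 1 is the reddest of its group, at a median of 0.097 over the 75.

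3 genes on different chromosomes encode the c subunit of ATP synthase, with the same mature protein and different import sequences. ATP5MC1 (chromosome 17, 48892765 to 48895871, forward strand) was at 66.2, 76.6 and 62.9 TPM in Cond 1, 51.9, 49.3 and 55.1 TPM in Cond 2 and 69.9, 69.1 and 81.6 TPM in Cond 3. It fell in Cond 2, without overlap, by 0.48 on the log2 scale (SE 0.0922, edgeR adjusted p = 4.48e-04), whereas in Cond 3 its log2 fold change was 0.07 (edgeR adjusted p = 0.560). ATP5MC2 (chromosome 12, 53632726 to 53677408, reverse strand) was at 222, 240 and 214 TPM in Cond 1, 230, 233 and 233 TPM in Cond 2 and 185, 179 and 186 TPM in Cond 3. It was low in the 3 libraries of Cond 3, a log2 fold change of -0.32 (SE 0.0524, edgeR adjusted p = 3.38e-05). ATP5MC3 (chromosome 2, 175176258 to 175181710, reverse strand) was at 125, 137 and 113 TPM in Cond 1, 120, 121 and 130 TPM in Cond 2 and 149, 161 and 148 TPM in Cond 3. It was high in Cond 3 (log2 fold change 0.26, SE 0.0603, edgeR adjusted p = 0.00156).

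The summed level of the c subunit genes was 419 ± 32.4 TPM in Cond 1, 408 ± 9.01 TPM in Cond 2, 409 ± 6.15 TPM in Cond 3 and 403 ± 4.19 TPM in Cond 4 (SD, n = 3), and these sums overlapped. Their shares of the sum did not depend on the scaling of a library. ATP5MC2 gave 53.8% ± 0.972 of the sum in Cond 1, 56.9% ± 1.09 in Cond 2, 44.8% ± 1.07 in Cond 3 and 55.5% ± 1.45 in Cond 4 (SD, n = 3). ATP5MC3 gave 29.9% ± 0.696 in Cond 1 and 37.3% ± 1.90 in Cond 3, and ATP5MC1 gave 16.3% ± 0.465 in Cond 1 and 12.8% ± 0.498 in Cond 2 (SD, n = 3). The shares of ATP5MC1 and ATP5MC2 in Cond 2 and of all 3 genes in Cond 3 lay outside the range of Cond 1 (p = 0.1 by an exact permutation test, two-sided, for each, the smallest p that 3 libraries against 3 allow). ATP5MC1 gave 17.9% ± 1.46 in Cond 3 (SD, n = 3). Its lowest library there, at 16.91%, was close to the highest of Cond 1, at 16.88%. The 3 shares are parts of the same sum, so they are not separate results. For ATP5MC3 in Cond 2 the exact permutation p was 0.6. Of the reads of ATP5MC2 and its pseudogene rows together, 4.1% were on the pseudogene rows.

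**Figure D4:**
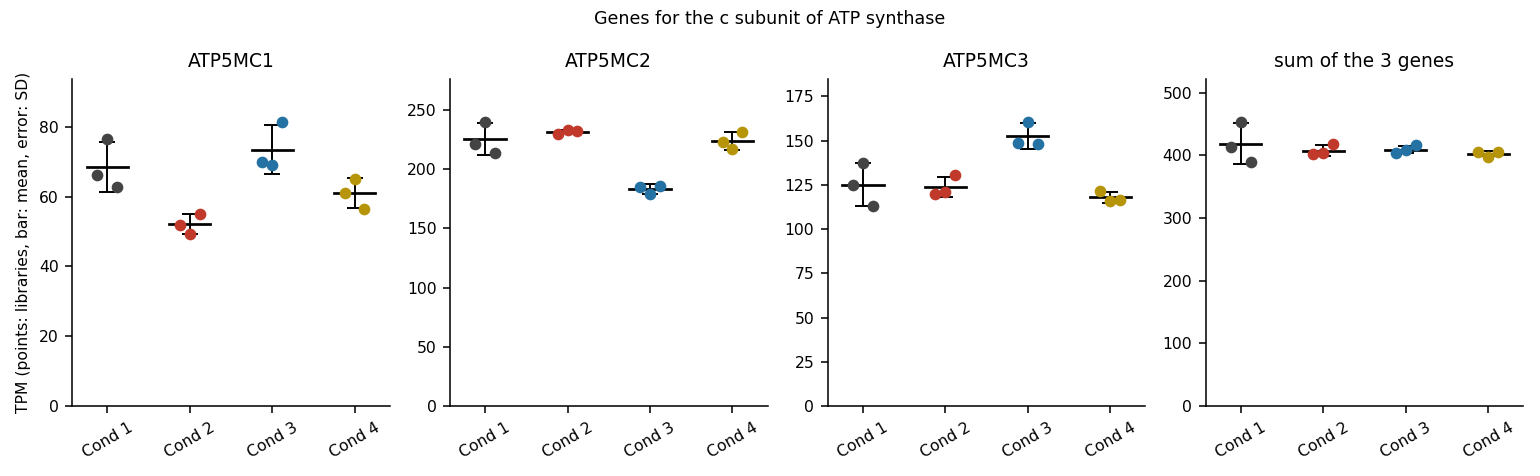
TPM of ATP5MC1, ATP5MC2, ATP5MC3 and their sum in the 12 libraries (points), with the mean of each condition as a bar and the SD as the error. ATP5MC1 is lowest in Cond 2, ATP5MC2 is lowest and ATP5MC3 highest in Cond 3, and the means of the sum lie between 403 and 419 TPM.

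Cond 3 and Cond 2 were compared directly, with Cond 1 in neither group. The filter, the scaling and the spread per gene still came from all 12 libraries. Of the 75 members, 20 had a higher level in Cond 3 and 7 had a lower one, beside 19.0% of all genes tested that were higher and 19.2% that were lower, and the median log2 fold change was 0.059. On TPM, 21 members lay above in all libraries and 11 below, beside 20.3% and 27.3% of all genes tested. ATP5MC1 had a log2 fold change of 0.56 (SE 0.0918, edgeR adjusted p = 4.45e-05) and NDUFA5 of 0.42 (edgeR adjusted p = 1.32e-04). SDHA, at 2.60, 2.5 and 2.39 TPM in Cond 2 and 3.56, 3.31 and 3.20 TPM in Cond 3, had 0.49 (edgeR adjusted p = 0.0175), and lost its call without Cond 2 replicate 3 (edgeR adjusted p = 0.0557) and without Cond 3 replicate 1 (edgeR adjusted p = 0.0598). The call of SDHA was also lost without the filter on low counts (edgeR adjusted p = 0.0578) and with limma, and with its pseudogene reads added the log2 fold change was 0.25 (edgeR adjusted p = 0.0487). By complex, 5 of 34 members of complex I were higher and 5 lower, 2 of 4 of complex II, 4 of 9 of complex III and 2 of 13 of complex IV were higher with 0, 0 and 1 lower, and 7 of 15 of complex V were higher and 1 lower. The lower ones were NDUFA4L2, NDUFV2, NDUFA12, NDUFB5, NDUFC2, COX7A2L and ATP5MC2, with -0.28 for ATP5MC2 (edgeR adjusted p = 1.79e-04). With its pseudogene reads added, NDUFV2 went from -1.26 to -0.33 and lost its call (edgeR adjusted p = 0.0877). Without Cond 2 replicate 3, and likewise without Cond 3 replicate 2, 3 were lower, and COX7A2L, NDUFA12, NDUFB5 and NDUFC2 were not called. In a fit of only the 6 libraries compared, 20 were higher and 5 lower, and NDUFA12 and NDUFA4L2 were not called.

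In Cond 4, with pipetting at passage, 0 of 75 members rose and 0 fell by edgeR, with a smallest adjusted p-value of 0.656, beside 0.0225% of all genes tested that rose and 0.00563% that fell. DESeq2 and limma called 0 members as well. An unadjusted p-value under 0.05 from edgeR was found for 9 members (12%), 4 higher and 5 lower, beside 6.21% of all genes tested. On TPM, 4 members lay above and 6 below Cond 1 in all libraries, beside 6.75% and 5.12% of all genes tested. Without the filter on low counts 1 member, COX7C, was called lower. Its TPM was 658, 818 and 756 in Cond 1 and 679, 627 and 592 in Cond 4, which overlapped (log2 fold change -0.25, SE 0.0682). NDUFS1, the largest core subunit of complex I, had 24, 20 and 20 reads in Cond 1 and 87, 29 and 55 in Cond 4, with all libraries of Cond 4 above (log2 fold change 1.49, edgeR adjusted p = 0.662).

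Several subunits have a paralog that is used mainly in muscle, lung or testis. In each such pair the common form held nearly all of the level in these cells. Among cytochrome c oxidase genes, COX4I1 was at 239.8 ± 20.1 TPM in Cond 1 (SD, n = 3) and the lung isoform COX4I2 had 0 to 10 reads in any library, 4, 10 and 2 of them in Cond 3. COX6A1 was at 50.1 ± 1.54 TPM in Cond 1 (SD, n = 3) and the muscle isoform COX6A2 at 0 to 6 reads per library. COX6B1 gave 97.5% ± 0.584 of the COX6B level in Cond 1 (SD, n = 3), beside the testis isoform COX6B2, whose level was 6.49 ± 0.886 TPM in Cond 1 and 8.63 ± 1.31 TPM in Cond 2 (SD, n = 3). COX7A1, the muscle isoform, had 15, 5 and 9 reads in Cond 1, 48, 20 and 9 in Cond 3 and 2, 4 and 1 in Cond 4. It was not called in any of these comparisons, with a log2 fold change of 1.27 in Cond 3 (SE 0.574, edgeR adjusted p = 0.0869). COX7B2 had 4 reads in all and COX8C 0 reads, which allows up to 3 reads over the 12 libraries. UQCRH gave 98.5% ± 0.335 of the level it shares with UQCRHL in Cond 1 (SD, n = 3). ATP5MGL had 0 to 2 reads per library, beside ATP5MG at 35.4 ± 2.09 TPM in Cond 1 (SD, n = 3).

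Some core or structural subunits were listed at very low levels. NDUFS3, a core subunit of complex I, had 0 to 2 reads per library, NDUFA3 had 0 to 7, NDUFA6 0 to 2 and ATP5IF1, the inhibitor of ATP synthase, 0 to 3. NDUFS1 had a mean of 0.329 TPM in Cond 1, and UQCRC2, the other core protein of complex III, had 3.57 TPM there. Of the 31-base words of their transcripts, 95.7% for NDUFA6 and 82.3% for NDUFA3 also occur on alternate sequences of the genome assembly, and for COX8C this was 94.5%. For NDUFS1 the share was 8.17% and for NDUFS3 3.42%, and NDUFS3 shares 16% of its exon bases with another gene on the same strand. The part of these copies and overlaps in the low values was not tested. SDHA had 1708 reads over all libraries and its 3 pseudogene rows had 6911, or 80.2% of the sum. With these reads added, SDHA had a log2 fold change of -0.29 in Cond 2 and was called lower (edgeR adjusted p = 0.0344). Over 43 members, 1.21% of the reads of the genes and their 153 named pseudogene rows together were on pseudogene rows, and for 4 of the 43 the share was above 10%.

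The 7 members without a count row were UQCR10, NDUFA6, NDUFA6-DT, ATP5MGL, ATP5PF, ATP5PO and NDUFV3. Of these, 4 could be tested with limma on log2(TPM + 1), and 0 were called in any of the 4 comparisons, beside 26.2% of all genes tested in Cond 2, 39.9% in Cond 3, 0.0210% in Cond 4 and 41.8% in Cond 3 against Cond 2. UQCR10 was at 63.7, 81.3 and 77.7 TPM in Cond 1, 68.0, 76.0 and 81.7 TPM in Cond 2 and 80.7, 76.8 and 69.8 TPM in Cond 3. ATP5PF, also called coupling factor 6, was at 111, 124 and 113 TPM in Cond 1, and ATP5PO, the stalk subunit that confers oligomycin sensitivity, at 47.3, 53.4 and 50.8 TPM. In Cond 2 their log2 differences on the log2(TPM + 1) scale were -0.0033 and 0.11. NDUFV3 had a difference of -0.20 in Cond 3 (limma adjusted p = 0.0625). With the reads recovered from TPM, edgeR gave it a log2 fold change of -0.24 and called it lower (edgeR adjusted p = 0.0222). At an unadjusted p-value under 0.05, limma had NDUFV3 lower in Cond 3 and ATP5PO lower in Cond 3 against Cond 2.

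Other genes that build or feed the chain were taken from lists of genes by role. The counts of these lists and of those in the next paragraph stand beside 10.8% of all genes tested that rose and 10.1% that fell in Cond 2, and 19.5% that rose and 18.8% that fell in Cond 3. In Cond 2, 5 of 18 tested assembly factors of complex I fell and 0 rose, and in Cond 3 7 fell and 1 rose, with medians of -0.13 and -0.096. NDUFAF7, a mitochondrial methyltransferase, had log2 fold changes of -0.46 in Cond 2 (edgeR adjusted p = 1.02e-05) and -0.73 in Cond 3 (edgeR adjusted p = 7.26e-09), and NDUFAF3 had -0.53 and -1.08. Of 9 assembly factors of complex III, 2 fell in Cond 2 and 5 in Cond 3, where the median was -0.43. TTC19 had -0.84 in Cond 3 (edgeR adjusted p = 2.62e-10), UQCC2 had -0.58 and LYRM7, a chaperone of the Rieske protein, had -0.50. Of 24 assembly factors of complex IV, 2 fell in Cond 2, and 9 fell and 1 rose in Cond 3, among them COX19 with -0.79 and COX15, of heme A synthesis, with -0.47. In complex II 0 of 4 fell in Cond 2 and 1, SDHAF4, in Cond 3 (-0.71), and in complex V 0 of 5 and 2 of 5. In Cond 4, 0 of the 247 genes tested over all of these lists were called by edgeR, DESeq2 or limma, with 6 higher and 21 lower at an unadjusted p-value under 0.05 from edgeR, and the background was 0.0282% of all genes tested.

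The TCA cycle and pyruvate dehydrogenase list, which supplies NADH and succinate, had 7 of 17 genes lower and 0 higher in Cond 2 (median -0.17), where DESeq2 called 8 and limma 2 lower and edgeR had 0 higher at an unadjusted p-value under 0.05, and 5 lower and 2 higher in Cond 3. IDH2 rose in Cond 3 from 91.8 to 165 TPM (log2 fold change 0.82, edgeR adjusted p = 4.40e-09) and SUCLG2 fell from 96.7 to 56.0 TPM (-0.81, edgeR adjusted p = 5.18e-09). Of 16 regulators of mitochondrial biogenesis, 2 rose in Cond 2, the factor NRF1 (0.29, edgeR adjusted p = 0.0385) and TFAM (0.21, edgeR adjusted p = 0.0132), which packages and transcribes mitochondrial DNA, and 0 fell. In Cond 3 TFAM rose by 0.20 on the log2 scale, and TFB1M (-0.52) and GABPB1 (-0.32) fell. Of the list of 5 other subunits and carriers, 1 fell in Cond 2 and 2 in Cond 3. As a background of other abundant transcripts, 10 of 72 genes of mitochondrial ribosomal proteins fell and 0 rose in Cond 2, and 4 of 77 genes of cytosolic ribosomal proteins fell and 3 rose. In Cond 3, 19 of 72 fell and 6 rose, and 14 of 77 fell and 5 rose. As shares, 26.4% of the mitochondrial and 18.2% of the cytosolic ribosomal list fell in Cond 3, beside 18.8% of all genes tested, and 13.9% and 5.19% fell in Cond 2, beside 10.1%. The members' median of -0.14 in Cond 2 stands beside -0.076 for the mitochondrial and -0.0033 for the cytosolic ribosomal list.

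The 13 subunits encoded by mitochondrial DNA are partners of these nuclear genes and had no count row. Their summed level was 103983, 78231 and 118105 TPM in Cond 1 and 90518, 52382 and 39407 TPM in Cond 2. The groups overlapped, and the libraries of Cond 2 differed among themselves by more than those of Cond 3, at 93198, 104354 and 100646 TPM, and of Cond 4, at 102916, 112302 and 103545 TPM. With limma on log2(TPM + 1), 11 of the 13 were lower in Cond 2, with a median of -0.81, beside 26.2% of all genes called in either direction. MT-ND4 had -0.96 (SE 0.244, limma adjusted p = 0.0116) and MT-CYB -0.94 (limma adjusted p = 0.0171), whereas MT-ND1 (-0.62, limma adjusted p = 0.147) and MT-CO1 (-0.64, limma adjusted p = 0.0597) were not called. In Cond 3 0 of 13 were called by limma, beside 39.9% of all genes called in either direction, and 1 was called lower by edgeR on recovered reads. In Cond 3 against Cond 2 8 were higher by limma, beside 41.8% of all genes called in either direction. TPM values of a library sum to a fixed total that includes these genes, whereas edgeR's scaling factors were computed without them.

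**Figure D5:**
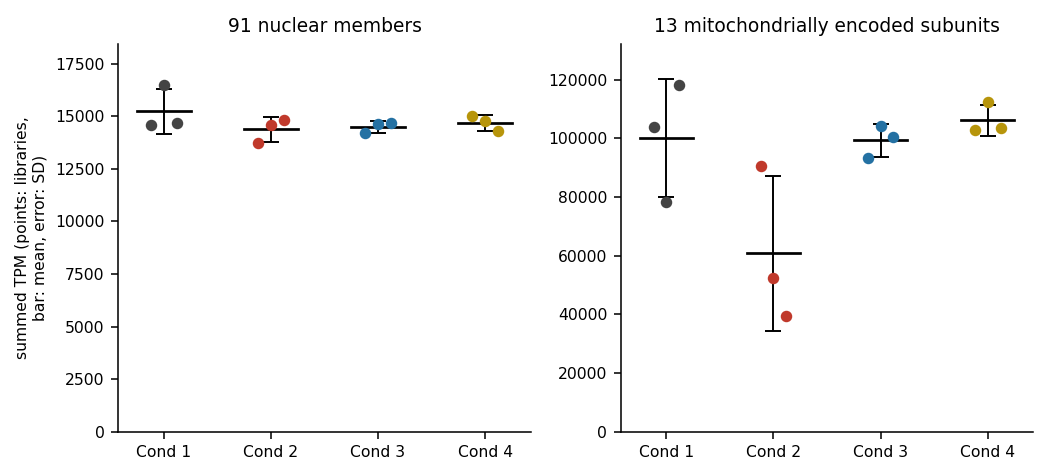
Summed TPM of the 91 nuclear members (left) and of the 13 mitochondrially encoded subunits (right) in the 12 libraries (points), with the mean of each condition as a bar and the SD as the error. The nuclear sums lie between 13726 and 16477 TPM, and the mitochondrial sums of Cond 2 spread from 39407 to 90518 TPM.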

How the data were processed

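RNA-Seq of poly(A) RNA was analysed in 12 libraries, 3 for each of 4 conditions. The submitters' processing notes list bcl2fastq 2.20.0.422, cutadapt 4.1, fastp 0.20.1, HISAT2 2.1.0, featureCounts and the human genome GRCh38. The strand and multi-mapping settings of the counting are not given in the sources used here. The deposited counts are whole reads per gene, and the deposited TPM values are read counts scaled by gene length and library. The count table held 58575 genes after 5 broken lines were left out. It stops within a line, so that 2042 of the 60617 genes of the TPM table had no count row.

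Counts were tested in edgeR 4.0.16 (R 4.3.3) by the quasi-likelihood test with TMM scaling and filterByExpr, in 1 fit over the 12 libraries, with Benjamini-Hochberg adjustment over the 17747 genes tested. A call is an adjusted p-value under 0.05. Genes without a count row were tested with limma 3.58.1 on log2(TPM + 1), among genes at 1 TPM or more in all libraries, and such fold changes understate those of low genes. DESeq2 1.42.0 and other scalings, filters, pseudocounts and left-out libraries served as alternatives. Whole reads were also recovered from TPM for 1165 of 1166 genes without a count row (within 0.0001 of a whole number), and pseudogene reads were added to their parent genes. Both of these alternatives, and the shorter of the motif letters, were chosen after seeing the data. The scripts were tested on simulated data.

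Genes were named by rule: in Cond 2 and Cond 3 up to 6 called members each way without overlap and with a mean of at least 1 TPM, up to 3 each way in Cond 3 against Cond 2, calls in Cond 4, the highest member of each complex, core subunits, paralogous isoforms, members without a count row and up to 4 genes per list. NDUFS3, NDUFA3 and UQCRC2 were added once their values had been seen. The members and the lists were chosen with earlier results of these data known. Of the 18 pairs of same-numbered libraries, 0 had a correlation of their deviations over 0.1. Pairs with different numbers did not reach it either, with a highest value of 0.061, so this cut cannot exclude a weak pairing. No pairing was used in the main fit, and a fit with the replicate number as a block is given below. The total count of 16441148 to 21871503 per library sets the counting error, and intervals cover counting error only. Libraries of the same condition differed by more than counting error, with a mean chi-square per gene of 4.07 to 9.58, which also limits the precision. The values of 1 member are not reported here, although it enters the fits, counts and medians.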

Additional observations from a re-analysis of the deposited data

Results flagged for a closer look

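Pseudogene rows lay outside the comparisons of the members, and for 2 members they held more reads than the gene. Over the 12 libraries, 6911 reads were counted on the 3 rows named as pseudogenes of SDHA, beside 1708 on SDHA. The row named as a pseudogene of NDUFV2 held 1692 reads, beside 794 on NDUFV2. Both are above the 3 reads that a count of 0 allows. Reads of a gene and of its near-identical copies may be split between rows in the counting, which was not tested. No test for a single outlying library was made, since each group held 3 libraries.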

How the results depend on the processing

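With 3 libraries per condition and small changes, counts of called members moved with the setting, whereas 0 members rose in Cond 2 under each alternative run. The 17 members lower in Cond 2 became 26 with library totals without scaling and 10 with limma at both pseudocounts, where the median was -0.049 for both, and the median of all genes 0.085 and 0.090. The 5 members higher in Cond 3 became 8 with upper-quartile scaling. With trends with gene length, GC content and level removed, the median in Cond 3 turned from -0.044 to 0.052, and the values of ATP5F1C (0.0062), COX7A2 (0.013), COX7C (0.025), NDUFA1 (0.080) and NDUFS5 (0.052) turned above 0; the cause was not tested. In Cond 4, 1 member was lower without the filter on low counts. In Cond 3 against Cond 2, the 7 lower members became 4 with upper-quartile scaling, and the median of 0.059 became 0.0017 with limma (log2(TPM + 1) and log2(TPM + 0.1)) and 0.22 with the trends removed. Of the members without a count row, 1 was called with recovered reads.

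With each library left out in turn, 12 to 22 members were lower in Cond 2 (12 without Cond 1 replicate 2, and 12 kept in all). In Cond 3, 3 to 7 were higher and 14 to 20 lower. Of the 5 higher and 21 lower members, 3 and 11 were kept in all. In Cond 3 against Cond 2, 17 to 21 were higher and 3 to 6 lower. Of the 20 higher and 7 lower members, 16 and 3 were kept in all. Of the members without a count row, 0 to 1 were called (1 without Cond 1 replicate 3). With limma on log2(TPM + 1), 7 members were higher in Cond 3, the 5 among them, and 14 were lower, all among the 21. With the replicate number as a block, 18 members were lower in Cond 2, 5 higher and 22 lower in Cond 3, and 20 higher and 6 lower in Cond 3 against Cond 2. Of 12 libraries, 7 correlated best with a library of their own number. DESeq2 called 19 members lower in Cond 2. Of the values of single genes over all alternatives, 2700 were counted as the same, and 127 lost and 23 gained a call. Without a test, 69 moved and 5 of called genes turned in sign. Values of genes that were not called counted as the same even where the sign changed. An example is SDHA in Cond 4, at -0.021 in the main fit and 0.060 without Cond 4 replicate 1. Depth limits NDUFA4L2, COX7A1 and the other members with few reads.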
